A study of Mus musculus with 2 samples.

Results

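Distal intergenic peaks within 20 kb of a transcription start site (TSS) are the anti-FLAG peaks that the authors' annotation table places outside genes and promoters, as Distal Intergenic, with no more than 20000 bp between the place of highest signal and the TSS of the assigned gene. They were chosen by these 2 columns alone. There were 9481 of them among 99782 annotated peaks, or 9.50% (Wilson 95% interval 9.32 to 9.69), and they made up 29.8% of the 31838 peaks annotated as distal intergenic. The assay was CUT&Tag, in which an antibody tethers the transposase Tn5 to chromatin so that DNA near the antibody's target is tagged for sequencing. The tissue was hippocampus of C57BL/6J mice with the genotype named CamK-PARIS, and no treatment was given. One group was a library made with anti-FLAG and the other a library made with IgG, the negative control, so each group had 1 library. Both libraries carried the same genotype. The labels spell out neither the promoter behind CamK nor the age, sex or number of animals, and no library of mice without the transgene was analysed here.

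PARIS (Zfp746) is a zinc-finger repressor and a substrate of the ubiquitin ligase parkin, known for repressing Ppargc1a, the gene of the mitochondrial regulator PGC-1alpha, through short insulin response sequences. FLAG is a peptide tag that an antibody recognises. Intergenic sequence a few kilobases from a TSS can hold enhancers, where activity-dependent factors such as AP-1, a dimer of Fos and Jun proteins, bind in neurons. Peaks were called by SEACR, which joins neighbouring covered bases into blocks and compares each block with the control. Every peak has the authors' maximum signal, the highest coverage in it, and the authors' total signal, the coverage summed over its bases. The scale of these signal values is not stated, so they are used here only to rank and describe peaks of this 1 library.

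The sequences below show what lay under the highest signal at the 4 tallest of these peaks, as 300 bases around the summit (the midpoint of the stretch that reaches the maximum), 5′ to 3′ on the plus strand of mm10 (GRCm38.p6). In these 4, capitals mark any match to the motifs searched for, described further on. The 4 sequences differ: they hold a run of short repeated units near Tut7 with 0 CpG, an AP-1 match near Otub2, a stretch with 12 CpG near Gmppa, and a stretch near Mirlet7a-1 with 76% GC and 44 CpG.
Tut7 (chr13:59835071-59835370, plus strand): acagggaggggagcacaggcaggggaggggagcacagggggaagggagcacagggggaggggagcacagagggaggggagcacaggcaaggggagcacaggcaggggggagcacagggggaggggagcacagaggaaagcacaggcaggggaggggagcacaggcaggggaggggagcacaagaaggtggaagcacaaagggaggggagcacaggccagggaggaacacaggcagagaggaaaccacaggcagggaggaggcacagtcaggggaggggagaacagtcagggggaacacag
Otub2 (chr12:103376736-103377035, plus strand): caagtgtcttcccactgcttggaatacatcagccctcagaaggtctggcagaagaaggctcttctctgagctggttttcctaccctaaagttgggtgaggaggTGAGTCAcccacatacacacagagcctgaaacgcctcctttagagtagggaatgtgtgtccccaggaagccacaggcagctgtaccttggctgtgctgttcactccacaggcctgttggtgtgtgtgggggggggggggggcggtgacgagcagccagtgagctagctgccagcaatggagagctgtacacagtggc
Gmppa (chr1:75445831-75446130, plus strand): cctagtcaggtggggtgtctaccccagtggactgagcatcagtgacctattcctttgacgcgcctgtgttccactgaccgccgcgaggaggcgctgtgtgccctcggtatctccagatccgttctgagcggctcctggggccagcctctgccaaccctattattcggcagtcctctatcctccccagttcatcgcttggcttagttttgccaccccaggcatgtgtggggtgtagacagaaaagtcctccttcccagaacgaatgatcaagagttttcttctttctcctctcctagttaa
Mirlet7a-1 (chr13:48546417-48546716, plus strand): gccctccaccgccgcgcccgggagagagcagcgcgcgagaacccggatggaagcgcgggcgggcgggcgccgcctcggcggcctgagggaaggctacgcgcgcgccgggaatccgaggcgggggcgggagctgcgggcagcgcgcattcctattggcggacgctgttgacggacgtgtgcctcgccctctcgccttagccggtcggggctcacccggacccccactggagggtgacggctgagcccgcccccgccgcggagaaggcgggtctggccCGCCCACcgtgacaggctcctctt

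The next sequences, each 200 bases around the summit, show the tallest peaks after Otub2 that held an AP-1 match and the tallest that held an insulin response sequence, with only that match in capitals. In Pard6b the insulin response sequence is on the minus strand, so the capitals give its reverse complement. The last sequence belongs to the tallest peak of constant height, a shape defined below, with the same peaks left out. It holds no match to AP-1 or to the insulin response sequence.
Kcns2 (chr15:34829523-34829722, plus strand): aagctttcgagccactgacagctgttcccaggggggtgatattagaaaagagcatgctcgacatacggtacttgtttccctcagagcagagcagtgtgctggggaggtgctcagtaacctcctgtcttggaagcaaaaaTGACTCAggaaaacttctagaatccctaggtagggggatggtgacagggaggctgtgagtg
Stac2 (chr11:98058080-98058279, plus strand): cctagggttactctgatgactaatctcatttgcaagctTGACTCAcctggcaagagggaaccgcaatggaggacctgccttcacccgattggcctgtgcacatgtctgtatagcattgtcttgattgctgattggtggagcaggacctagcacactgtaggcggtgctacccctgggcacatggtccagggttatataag
Pard6b (chr2:168072846-168073045, plus strand): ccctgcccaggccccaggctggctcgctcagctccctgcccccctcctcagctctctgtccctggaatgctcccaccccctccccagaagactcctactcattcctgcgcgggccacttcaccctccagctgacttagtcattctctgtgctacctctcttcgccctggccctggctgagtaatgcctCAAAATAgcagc
Krt84 (chr15:101536167-101536366, plus strand): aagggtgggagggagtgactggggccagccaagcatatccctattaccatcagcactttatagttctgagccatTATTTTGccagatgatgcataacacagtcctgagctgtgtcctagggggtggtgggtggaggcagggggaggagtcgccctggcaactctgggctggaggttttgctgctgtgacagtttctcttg
1700057H21Rik (chr2:51457837-51458036, plus strand): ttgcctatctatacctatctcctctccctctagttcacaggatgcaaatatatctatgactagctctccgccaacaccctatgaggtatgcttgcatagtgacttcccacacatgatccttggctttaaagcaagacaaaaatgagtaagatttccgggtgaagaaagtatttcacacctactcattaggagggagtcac

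The tallest peak had a maximum signal of 858 and lay 12072 bp upstream of Tut7, which encodes an enzyme that adds uridines to RNA ends (chr13:59834743-59835947). It ranked 20th in maximum signal among all annotated peaks. The next had a maximum signal of 857 and lay 11788 bp upstream of the TSS the authors assigned for Otub2, a deubiquitinase gene (chr12:103376081-103377445). In the RefSeq annotation of the same build, however, its summit was 9 bp from a TSS of Otub2. The third, at 792, lay 3754 bp downstream of the TSS of Gmppa, which encodes a regulatory subunit of GDP-mannose synthesis (chr1:75444144-75446518), and had the highest total signal of all 9481, at 524186. The fourth, at 763, was assigned to the microRNA gene Mirlet7a-1, 8290 bp away (chr13:48545601-48546789), but its summit was 66 bp from the TSS of the long noncoding RNA 6720427I07Rik in GENCODE M21.

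The other 6 of the 10 tallest were assigned to A330009N23Rik (735), Wnt10a (710), Kdm6b (705), Lep (699), Ksr2 (661) and Rbm5 (649). Wnt10a encodes a Wnt ligand and Lep encodes the hormone leptin. Kdm6b encodes a histone H3K27 demethylase, and its peak was 780 bp from a TSS of the RefSeq gene Gm51903. Ksr2 encodes a scaffold of the MAP kinase pathway, and its peak was 237 bp from a TSS of Gm52829. Among the 10 tallest peaks, 4 therefore lay within 1 kb of a TSS in GENCODE or RefSeq: those of Otub2, Mirlet7a-1, Kdm6b and Ksr2. By total signal, Gmppa was followed by Camk2n1, an inhibitor of the kinase CaMKII, at 457603, Kdm6b at 420766 and Mir135a-1 at 402373. The Mir135a-1 peak was 76 bp from the GENCODE TSS of the antisense gene D030055H07Rik. The widest peak, 4126 bp at Trappc6b, had a maximum signal of only 64, and 100% of its summit window was soft-masked, the mark for repeats in the genome file.

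Over all 9481 peaks, 90.7% were also intergenic in GENCODE M21 and 0.370% were in a GENCODE gene body (of the 9456 on chromosomes 1 to 19, X and Y). A TSS of GENCODE or RefSeq lay within 1 kb of the summit in 547 of them, or 5.78% (5.33 to 6.27). So the label distal held for most of these peaks, with 4 of the exceptions among the 10 tallest. The 547 had a median maximum signal of 107 (95% interval 102 to 112) and the 8909 others on these chromosomes 99 (97 to 100).

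The last peaks inside the 20 kb limit were at Gm1965, 19996 bp away with a maximum signal of 145, Fam161a, 19995 bp with 16, and 9630028H03Rik, 19995 bp with 107. The first outside were at Sspn, 20001 bp with 36, Dlc1, 20001 bp with 120, and Entpd3, 20002 bp with 65. The nearest to a TSS was 3001 bp from Lin7c, with a maximum signal of 167. The median distance was 10034 bp.

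The typical peak was much lower than those named above. Maximum signal ranged from 5 to 858 with a median of 99 (95% interval 98 to 101) and quartiles of 63 and 133, and only 0.664% of the peaks, 63 in number, reached 400. Median width was 356 bp (348 to 364), and the peaks covered 3.87 Mb in all. The median maximum signal was 98 in distal intergenic peaks 20 to 100 kb from a TSS (12575 peaks), 95 in those beyond 100 kb (9782 peaks) and 100 in peaks annotated as promoter at 1 to 3 kb (9268 peaks). Within the 20 kb, distance made little difference to height: the median was 101 at 3 to 5 kb, 99 at 5 to 10 kb, 98 at 10 to 15 kb and 99 at 15 to 20 kb. Intervals given for shares and medians of peaks cover counting error only, since 1 library gives no replicate error and neighbouring peaks are not independent.

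Most of these peaks were flat blocks, as were most peaks of the whole list. A peak is called here of constant height where its total signal is at least 99% of its maximum signal times its width, so that coverage hardly changes from end to end. That held for 6025 of the 9481, or 63.5% (62.6 to 64.5), close to the 63.3% of all annotated peaks (63.0 to 63.6). The share was 2.65 percentage points lower than at 20 to 100 kb (Newcombe 95% interval of the difference -3.93 to -1.38) and 11.5 points lower than beyond 100 kb (-12.7 to -10.2). It was 1.20 points above that of promoter peaks at 1 to 3 kb, a difference whose interval included 0 (-0.178 to 2.59). The 3456 peaks of other shape had a median maximum signal of 128.5 and a median width of 586 bp, against 90 and 245 bp in the peaks of constant height. All of the 10 tallest were of other shape.

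**Figure D1:**
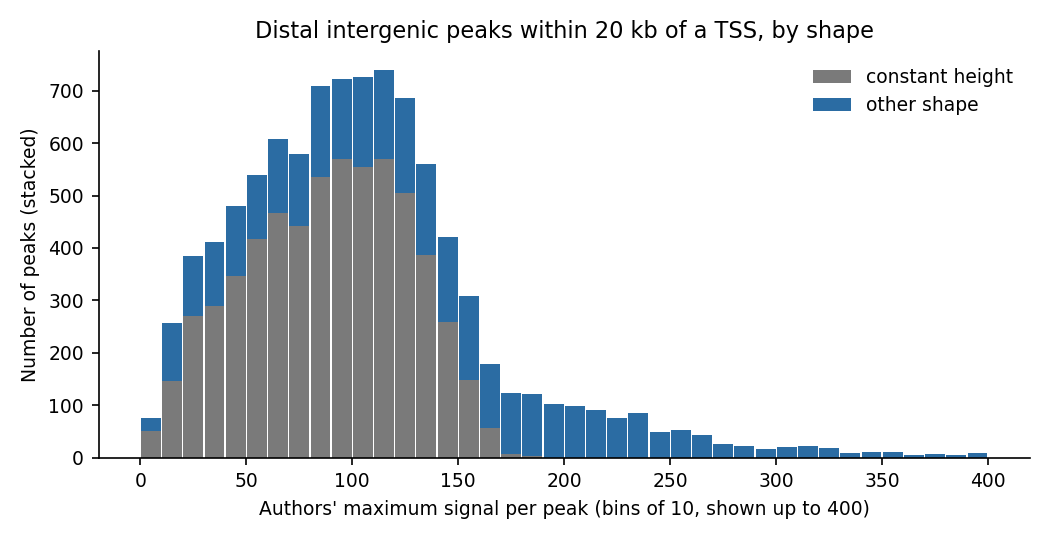
Number of distal intergenic peaks within 20 kb of a TSS (y axis) by the authors' maximum signal in bins of 10 (x axis, up to 400), stacked by shape. Peaks of constant height (grey, 6025 in all) are the larger part of the low and middle bins, and those of other shape (blue, 3456 in all) make up nearly all of the tall ones.

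How thickly intergenic peaks lay was measured against the amount of intergenic sequence at each distance, with peaks and sequence both classed by GENCODE M21. By that annotation 14730 peaks lay in intergenic sequence 3 to 20 kb from the nearest TSS, more than the 9481 of the authors' table. At most 8579 of them were among the 9481, so densities describe the peaks classed by GENCODE and not the 9481 alone. Density fell with distance, from 32.0 peaks per Mb at 3 to 5 kb (exact Poisson 95% interval 30.8 to 33.2) to 29.5 at 5 to 10 kb, 28.0 at 10 to 15 kb and 26.4 at 15 to 20 kb. It went on falling to 22.7 at 20 to 50 kb, 18.4 at 50 to 100 kb and 13.9 beyond 100 kb. The density at 3 to 10 kb was 1.11 times that at 10 to 20 kb (1.07 to 1.14), and the density over 3 to 20 kb was 1.37 times that over 20 to 100 kb (1.34 to 1.40). It was still below that of the whole genome, at 28.8 against 37.7 peaks per Mb.

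Of the 9481 peaks, 6254 lay upstream of the assigned TSS, or 66.0% (65.0 to 66.9), and 3227 downstream. The upstream share was 77.1% at 3 to 5 kb and 60.7% at 15 to 20 kb. The class itself favours upstream sites, since a site downstream of a TSS is intergenic only past the end of the gene: the assigned gene had a median length of 3024 bp for downstream peaks and 21387 bp for upstream peaks. In GENCODE, 58.8% of the intergenic sequence at 3 to 20 kb was upstream of the nearest TSS, beside 60.0% of the peaks (59.2 to 60.8). Per Mb, upstream sequence held 1.20 times as many peaks as downstream sequence at 3 to 5 kb (1.11 to 1.31), and 1.02 times as many at 5 to 20 kb (0.984 to 1.06). So over peaks of every shape density was higher upstream at 3 to 5 kb, and at 5 to 20 kb no difference between the sides was detectable. For peaks not of constant height, the density at 3 to 5 kb was 11.4 per Mb upstream (10.5 to 12.3). Downstream it was 10.2 (9.09 to 11.4), and these intervals overlapped.

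**Figure D2:**
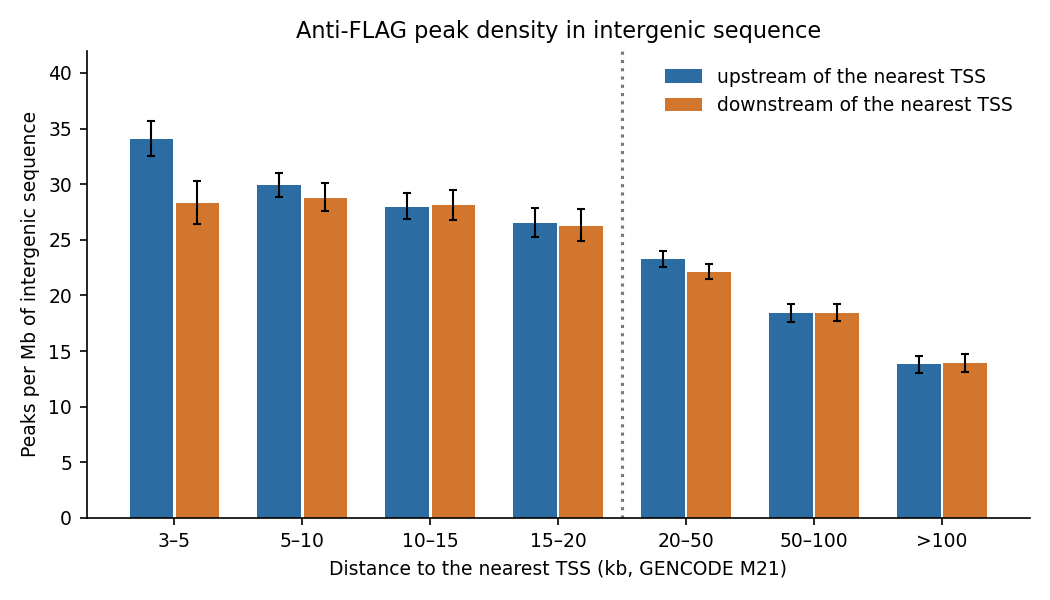
Peaks per Mb of GENCODE M21 intergenic sequence (y axis) by distance to the nearest TSS in kb (x axis), upstream (blue) and downstream (orange), with exact Poisson 95% intervals as error bars; the dotted line marks 20 kb. Density falls from 34.1 upstream and 28.3 downstream at 3 to 5 kb to 13.8 and 13.9 beyond 100 kb.

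Chromosomes differed. On autosomes, intergenic sequence at 3 to 20 kb held 32.9 peaks per Mb, with the lowest density on chromosome 14 (25.4) and the highest on chromosome 11 (47.8). X held 9.06 per Mb, which is 0.275 times the autosomal density (0.246 to 0.306), and Y, which also enters the 28.8 per Mb, held 42 peaks in 37.4 Mb. The sex of the animals is not given in the labels. Intergenic sequence between convergent genes held 31.4 peaks per Mb (30.3 to 32.6), between divergent genes 30.1 (29.2 to 31.0) and between genes in tandem 27.5 (26.9 to 28.2).

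The 9481 peaks were assigned to 6003 genes. Of these, 3846 had 1 peak, 1359 had 2 and 127 had 5 or more. The highest number was 9, reached by Fcgr3, Gm20878, Gm5122 and Kcnf1. Fcgr3 encodes a low-affinity receptor for IgG, and its 9 peaks had maximum signals from 62 to 156. Kcnf1 encodes a modifying subunit of voltage-gated potassium channels, and its peaks ranged from 18 to 151. The peaks of the predicted gene Gm20878 were low, from 7 to 81, and were spread over 497778 bp, against 36265 bp at Fcgr3, so they cannot all belong to 1 TSS. Of the genes with 8, Cck encodes the neuropeptide cholecystokinin (maximum signals from 37 to 128), Cplx2 the synaptic vesicle protein complexin 2 (39 to 254), Dlk1 a Notch-like ligand (67 to 202) and Wnt11 a Wnt ligand (24 to 137). The peaks of Cplx2 were spread over 100203 bp and those of Wnt11 over 47245 bp, also more than 20 kb to either side of 1 TSS. The 8 peaks at Ptk2, the gene of focal adhesion kinase, were all upstream and lay within 11874 bp (22 to 225). Genes with 8 were named after their values were seen.

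The median distance to the nearest other peak of any class was 4424 bp (4290 to 4587), close to that of all annotated peaks, 4380 bp, and shorter than the 6350 bp at 20 to 100 kb. Another peak of some class lay within 5 kb of 53.7% of these peaks (52.7 to 54.7). When only peaks of this class were considered and those no more than 5 kb apart were chained, 58.2% were in no chain and 7.66% were in chains of 4 or more, beside 57.8% and 9.60% at 20 to 100 kb. A chain ends where its class ends, and this class spans a shorter distance, so these shares are not like for like. The longest chain had 9 peaks in 11337 bp, assigned to the phospholipase genes Pla2g2d and Pla2g5, with maximum signals from 59 to 191. A chain of 7 at Trp53i11 reached 351, and a chain of 6 at Trim8 and Arl3 reached 618.

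The assigned gene also had a promoter peak, one within 1 kb of its TSS, for 53.6% of these peaks (52.6 to 54.6). For all annotated peaks the share was 65.7% (65.4 to 66.0). That value is raised by construction, since it includes the promoter peaks themselves, which count by definition. The share of these peaks was 3.69 points higher than at 20 to 100 kb (2.36 to 5.02), and its difference from promoter peaks at 1 to 3 kb was -13.9 points (-15.3 to -12.6). It was 5.24 points higher for peaks of other shape than for those of constant height (3.15 to 7.31), and 3.35 points higher for upstream than for downstream peaks (1.23 to 5.47). The tallest peak, at Tut7, had no promoter peak at its gene, whereas Kdm6b had 2 with a maximum signal of up to 485.

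Gene lists were read against all protein-coding genes, of which 23.6% (5171 of 21938) had at least 1 distal intergenic peak within 20 kb and 10.4% (2277) had one of other shape. The lists were drawn up with earlier results of these data known, and no test of a list was made. Of 9 genes on a list of genes linked to PARIS, with Camk2a counted among the 9, 6 had such a peak, and 5 had one of other shape. A peak of any class was at 8 of the 9, and a promoter peak at 44.4%, beside 42.4% of all protein-coding genes. Ppargc1a had no peak of this class, nor did Igfbp1, a target of insulin signalling, or Mdm4, an inhibitor of p53. In other classes Ppargc1a had 18 assigned peaks, none of them a promoter peak, and Mdm4 had 8, of which 2 were promoter peaks. Igfbp1 had no peak of any class. Pck1, the gene of the gluconeogenic enzyme PEPCK, had 3 peaks with maximum signals of 49, 79 and 59, all of constant height. G6pc, the gene of glucose-6-phosphatase, had 2, one of 171 at 7786 bp upstream and one of 81 at 19126 bp downstream. Tkt, the gene of transketolase, also had 2, at 123 and 51. Nrf1, a regulator of mitochondrial genes, had 1 of 220 at 6314 bp upstream. Zfp746, which encodes PARIS, had 1 of 119 at 8309 bp downstream. Camk2a, the gene of a neuronal calcium-dependent kinase, had 1 of 349 at 3770 bp upstream.

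Immediate early genes are switched on within minutes by neuronal activity. Of the 18 listed, 11 had at least 1 such peak, with 37 peaks in all, and 9 had one of other shape. These genes were also rich in peaks of other classes. All 18 had an annotated peak of some class, beside 15905 of all 21938 protein-coding genes. A promoter peak was at 83.3% of them, beside 42.4% of all protein-coding genes. The median maximum signal of the 37 was 134, beside 99 for the 8075 peaks of all protein-coding genes. Btg2, an antiproliferative gene, had 7 peaks, with maximum signals of 494 at 4009 bp upstream, 331, 299 and 257 on the downstream side, and 151, 93 and 49 for the 3 of constant height. Arc, which encodes a synaptic protein of long-term plasticity, had 6, on both sides of the gene. Its 2 highest were 322 at 4597 bp downstream and 292 at 6764 bp upstream. Npas4, an activity-dependent transcription factor, had 6, all upstream, from 50 to 253, the highest at 11621 bp. Nr4a1, a nuclear receptor gene, had 2, at 310 and 173, both upstream. Fos had 4, all downstream between 11302 and 17459 bp, from 71 to 142. Egr1 had 188 and 104, Egr2 had 118 and 99, and the nuclear receptor gene Nr4a2 had 161 and 53. Nr4a3, of the same family, had 4, all upstream, from 16 to 134. Egr3 and Junb had 1 each, of constant height, at 149 and 75. Fosb, Jun, Egr4, Bdnf, Ier2, Dusp1 and Homer1 had none.

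**Figure D3:**
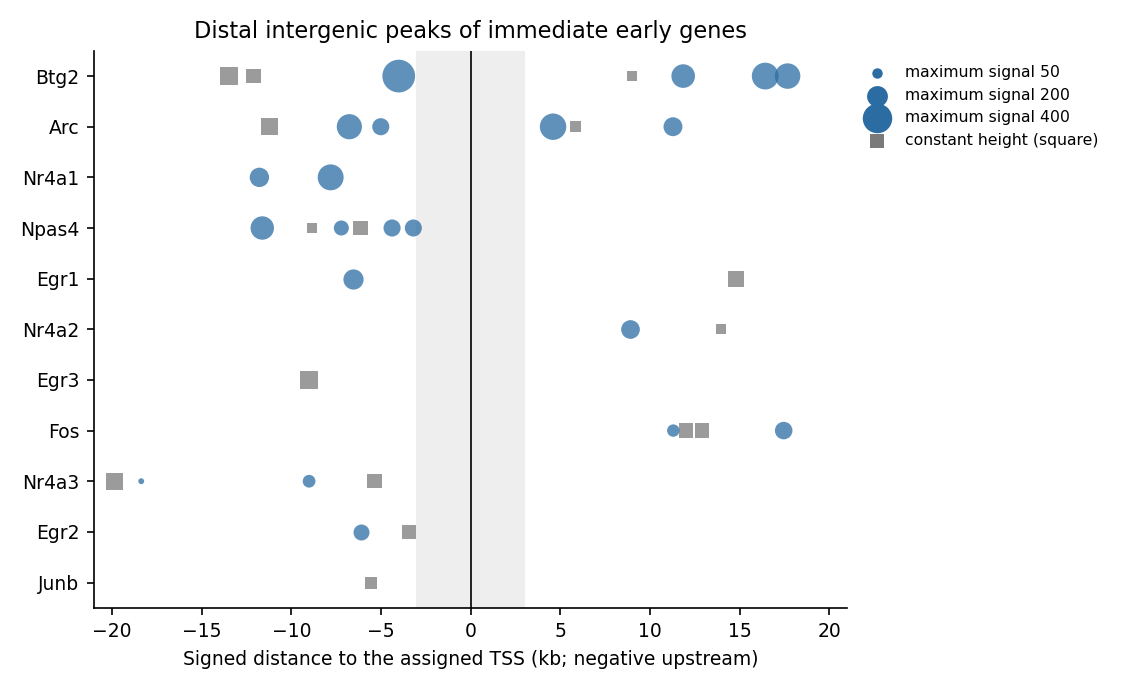
Each distal intergenic peak within 20 kb assigned to an immediate early gene, by signed distance to the TSS in kb (x axis, negative upstream) and gene (y axis, ordered by highest peak); marker area grows with maximum signal, squares are of constant height and the grey band is the 3 kb around the TSS that the class leaves out. Btg2 and Arc have tall peaks on both sides, the peaks of Npas4 and Nr4a1 are all upstream and those of Fos all downstream.

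Among markers of the cell types of the hippocampus, 10 of 14 genes of excitatory neurons had such a peak. Besides Camk2a, the highest were at the transcription factor genes Tbr1 (255) and Neurod2 (203, with 6 peaks) and at Wfs1, a marker of CA1 pyramidal cells (156). The share was 5 of 12 for interneurons, led by Pvalb (208) and Sst (186). It was 5 of 12 for the oligodendrocyte lineage, led by Mbp (143) and Mobp (140), 3 of 11 for astrocytes, led by Slc1a3, a glutamate transporter gene (328), 3 of 10 for microglia, led by Trem2 (177) and Tmem119 (165), and 4 of 8 for endothelial cells, led by the glucose transporter gene Slc2a1 (161). Beside the 23.6% of all protein-coding genes, the Wilson intervals of the interneuron, oligodendrocyte, astrocyte, microglia and endothelial lists all included that share. The lists are short and were drawn up with earlier results known, so these intervals are wide and are no test of a list. A promoter peak was at 64.3% of the excitatory neuron genes and 75% of the interneuron genes, beside 42.4% of all protein-coding genes. It was at 33.3% for the oligodendrocyte lineage, 27.3% for astrocytes, 40% for microglia and 25% for endothelial cells.

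**Figure D4:**
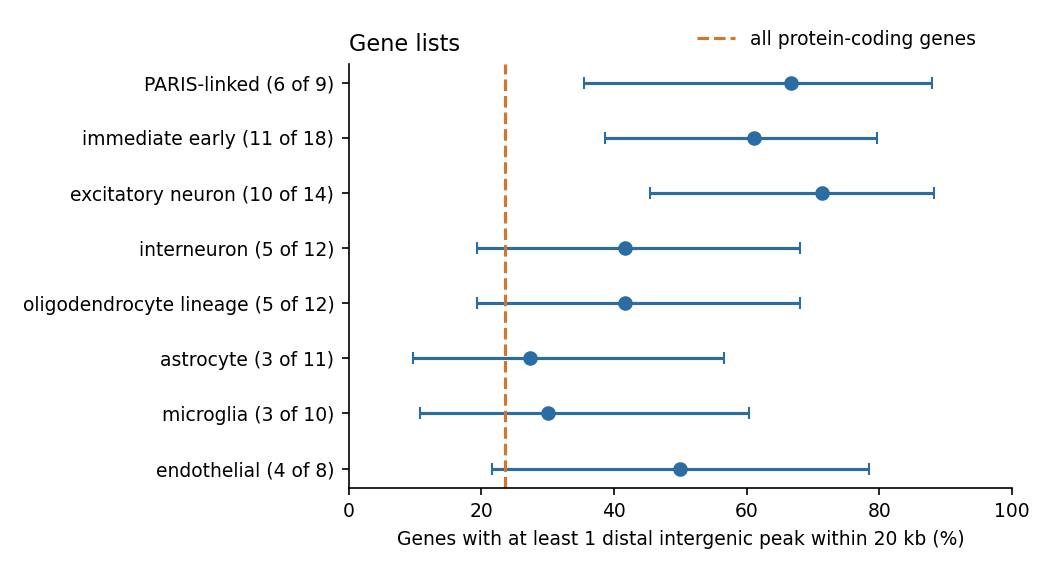
Share of the genes of each list with at least 1 distal intergenic peak within 20 kb (x axis, %), with Wilson 95% intervals, and the share of all protein-coding genes as a dashed line (23.6%). The points of the PARIS-linked, immediate early and excitatory neuron lists are at 66.7%, 61.1% and 71.4%, and those of the astrocyte and microglia lists at 27.3% and 30%. Those of the interneuron, oligodendrocyte and endothelial lists are at 41.7%, 41.7% and 50%.

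A few of the peaks overlapped, over any length, enhancers that RefSeq records for this build from experiments such as reporter assays in embryos (VISTA). Of 1019 RefSeq enhancers, 211 overlapped any peak and 28 overlapped one of these peaks, 34 in all. The class held 9.50% of all annotated peaks, and whether other sequence would overlap enhancers as often was not tested. The median maximum signal of the 34 was 103.5 (69 to 144), beside 99 for all 9481. Of the 34, 16 were not of constant height, or 47.1% (31.5 to 63.3), beside 3456 of all 9481. The 2 highest, of 331 and 299, lay in 1 element, VISTA enhancer mm1445 (chr1:134060554-134066172), downstream of Btg2. Others were at Dlg5 (247), Trmt61a (239) and Miat (200).

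The sequence under the peaks was read in 200 bp windows around the summit and, for comparison, in 2 windows of the same length centred 1000 bp to either side. There were 9454 such sets. Mean GC content was 48.6% at the summit (SD 7.16 over windows) and 45.8% in the flanks, a difference of 2.84 points (2.68 to 2.99). Summit GC was 1.18 points above that of peaks at 20 to 100 kb (0.986 to 1.37), but flank GC was lower there too, at 44.6%. The difference in summit GC from promoter peaks at 1 to 3 kb was -1.15 points (-1.36 to -0.937). The summit-minus-flank difference was 2.81 points at 20 to 100 kb, 1.45 in promoter peaks at 1 to 3 kb and 3.44 in all annotated peaks. Soft-masked bases made up 28.0% of the summit windows and 30.8% of the flanks.

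The AP-1 site, searched as TGANTCA on both strands, was in 10.6% of summit windows (9.96 to 11.2) and 6.16% of flank windows, a difference of 4.41 points (3.71 to 5.12). Of the summit windows of all annotated peaks 9.39% held it. The share did not differ detectably from that at 20 to 100 kb (difference -0.19 points, interval -1.01 to 0.641) and was 1.93 points above that of promoter peaks at 1 to 3 kb (1.08 to 2.77). It rose with peak height, from 7.94% in the lowest decile of maximum signal (6.38 to 9.84) to 16.1% in the highest (13.9 to 18.6), while the flanks stayed between 5.07% and 6.55%. The lowest and highest deciles of the peaks of other shape had 6.12% (4.04 to 9.18) and 17.8% (14.1 to 22.2). In the peaks of constant height they had 8.82% (6.81 to 11.4) and 12.3% (9.92 to 15.2), intervals that overlapped. Kcns2 and Stac2, whose sequences are printed above, belong to the tall peaks with a match. In the 215 sets with no soft-masked base in any window the difference was 3.26 points, and its interval included 0 (-1.43 to 7.94).

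The insulin response sequence, searched as TATTTTT or TATTTTG on both strands, went the other way. It was in 9.28% of summit windows (8.71 to 9.88) and 13.3% of flank windows, a difference of -3.98 points (-4.73 to -3.23). All annotated peaks had it in 9.95% of summit windows. The share was 10.9% in the lowest decile of maximum signal and 6.67% in the highest. This motif holds mainly A and T, GC content was higher at summits than in flanks, and the part of base composition in the difference was not tested. In the 215 sets with no soft-masked base the share was 3.72% at the summit and 3.95% in the flanks, and the difference was -0.23 points (-3.50 to 3.03). Examples with a match are the Pard6b and Krt84 sequences above.

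**Figure D5:**
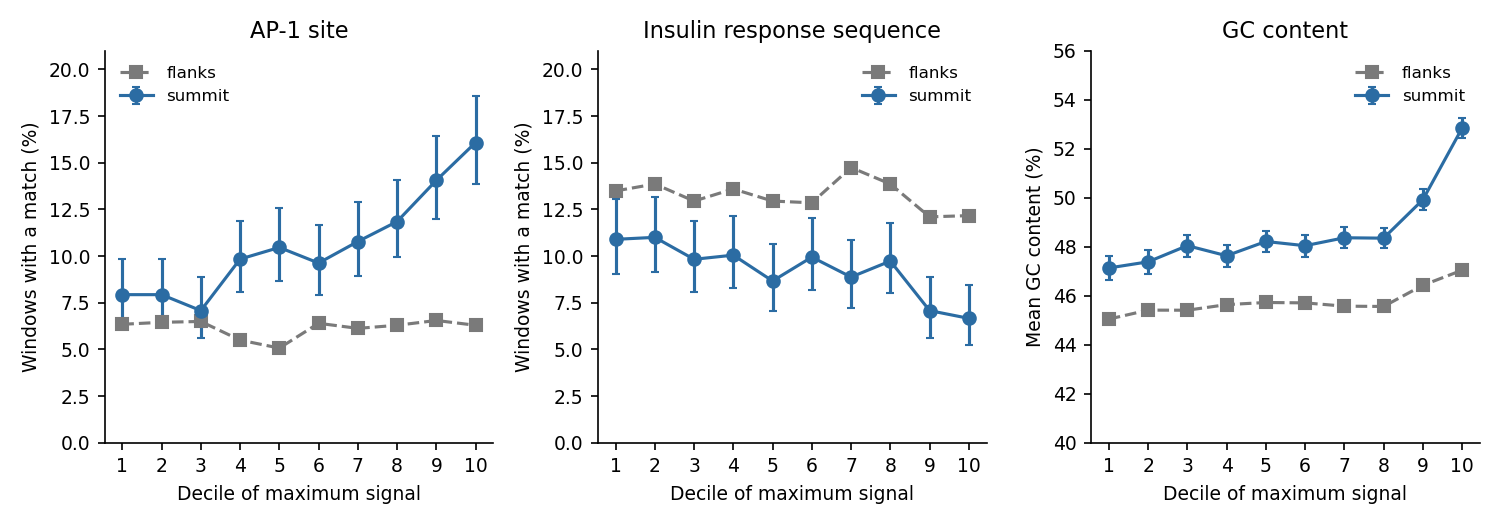
Share of 200 bp windows with an AP-1 match (left) or an insulin response sequence (middle) and mean GC content (right, axis from 40%), at the summit (blue, 95% intervals) and in the flanks (grey), by decile of maximum signal from lowest to highest (x axis). The AP-1 share rises to 16.1% in the highest decile while the flanks stay level, the insulin response share falls to 6.67%, and summit GC rises from 47.1% to 52.8%.

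In percentage points the remaining motifs differed less between summit and flank. The core of the CTCF site, bound by an insulator protein, was in 2.92% of summit windows (2.60 to 3.28) and 2.21% of flanks, a difference of 0.714 points (0.320 to 1.11), and in 1.84% of summit windows of all annotated peaks. Its summit share was 1.18 points above that of peaks at 20 to 100 kb (0.779 to 1.60), but the flanks there were lower too, and the summit-minus-flank differences of the 2 classes differed by 0.331 points, an interval that included 0 (-0.146 to 0.808). The E-box CAGATG was in 17.3% of summit windows and 15.9% of flanks (difference 1.45 points, 0.528 to 2.37), and in 16.7% of summit windows of all annotated peaks. Its difference was 2.70 points in peaks of constant height (1.54 to 3.86). In peaks of other shape it was -0.742 points, with an interval that included 0 (-2.25 to 0.768). The Egr core GTGGGCG was rarer, in 1.47% of summit windows and 0.714% of flanks (difference 0.756 points, 0.487 to 1.03). It was in 1.91% of summit windows of all annotated peaks, and its difference at 20 to 100 kb was 0.678 points (0.454 to 0.902). This core holds mainly G and C, and the part of base composition in the differences of these motifs was not tested. All motifs were searched on both strands, and a match could overlap one of another motif.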

How the data were processed

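CUT&Tag data of 1 anti-FLAG library were used, and the IgG library entered only through the authors' peak calling; no file of its own was analysed here. Per the labels' protocols, Bowtie2 placed the trimmed reads on mm10, the authors dropped duplicates and poor alignments, and SEACR called the peaks with IgG as control. Versions and settings are not given in the sources used here. The deposited peak list holds total and maximum signal per peak, and the deposited annotation table holds the class, gene and distance; its tool is not stated. No depth is known, so no interval for depth can be given.

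Members were taken from that table. Distances to GENCODE M21 and RefSeq GRCm38.p6, intergenic territory on a 10 bp grid, windows and motifs were computed with Python 3.11.15, pandas 2.3.3, numpy 2.4.6, scipy 1.17.1 and pysam 0.24.0, and checked on simulated data; figures used matplotlib 3.10.9. The build of the reference matched that of the peaks. All sequences come from the RefSeq genome of that build. Intervals are 95% (Wilson for shares, Newcombe for differences, order statistics for medians, exact Poisson for densities, normal for paired differences). With 1 library no test was made. Peaks on 7 unplaced sequences (25 members) entered counts but not densities or reference distances.

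Named genes were those of the 10 highest members by maximum and by total signal, the 5 widest, the 5 genes with most members, the members beside the 20 kb limit and up to 4 genes per list, extended to all members of the immediate early and PARIS-linked lists. Members and lists were chosen with earlier results of these data known. AP-1 was added as a result after its share was seen. Alternatives were a height filter, leaving out constant-height peaks, a width minimum, merging, the distance limit, the annotation, window length, the promoter distance and soft-masked bases.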

Additional observations from a re-analysis of the deposited data

How the results depend on the processing

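Across 9 results and 60 alternatives, 30 values stayed within the interval of the reported value (for the number of peaks, which has none, within 1.5 times it), 30 moved beyond and 0 changed sign; the density ratio did not move under those run. The number of peaks was 4571 above the median of maximum signal, 3456 without constant-height peaks, 4723 with a 10 kb limit and 14730 by GENCODE, as each choice admits other peaks; it was 6790 with a width minimum of 200 bp and 8447 after merging. The upstream share was 65.0% above the median signal, 70.7% with 10 kb and 60.0% by GENCODE. The difference in constant height from peaks at 20 to 100 kb was -4.48 points above the median signal and -4.19 by GENCODE. The median maximum signal was 128.5 without constant-height peaks, 92 for peaks at least 200 bp wide and 102 after merging. The GC difference was 3.46 points above the median signal, 4.57 without constant-height peaks, 2.68 with the width minimum, 3.01 after merging and 2.51 with 400 bp windows. The insulin response difference was -4.89 points without constant-height peaks, -5.63 with 400 bp windows and -0.23 without soft-masked bases. The AP-1 difference was 6.27 points above the median signal, 6.65 without constant-height peaks, 6.48 with 400 bp windows and 3.26 without soft-masked bases; the soft-masked alternative and all for AP-1 were chosen after seeing the data. The share with a promoter peak was 41.3% above the median signal, 43.6% without constant-height peaks, 49.2% with the width minimum and 50.6% after merging, where promoter peaks are filtered too, and 46.05% with promoter peaks within 500 bp and 66.1% within 3 kb. Apart from those set by construction, the cause was not tested. No paired analysis was possible because each antibody has 1 library. With no replicate and no known depth, none of these intervals covers variation between animals or libraries, and IgG signal at single peaks was not analysed here.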
